A study of Homo sapiens with 3 samples.

Results

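Classical cadherins and catenins are the transmembrane and cytoplasmic proteins of the adherens junction, and their transcripts were measured here in CAMA1 cells, a long-used line grown from a human breast carcinoma. The 9 genes were taken by name from a count table of 26485 entries: the cadherin genes CDH1, CDH2, CDH3, CDH4 and CDH11, and the catenin genes CTNNA1, CTNNB1, CTNND1 and JUP. All 9 had an entry. With 3 libraries of 1 group, which the submitters call biological replicates, and nothing to compare them with, levels, their order and their spread are what the data can show. The cells are labelled as estrogen receptor-positive and FGFR1-amplified, were below passage 10 in culture, and were kept without estradiol for 48 h ahead of RNA extraction. No agent, genetic change or comparison line is named in the labels, and all 3 libraries come from this 1 line.

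A cadherin spans the cell membrane and binds a cadherin of the same kind on the next cell. Inside the cell its tail holds beta-catenin (CTNNB1) or the related plakoglobin (JUP), and either of these holds alpha-catenin (CTNNA1), which connects to actin. The p120 catenin (CTNND1) binds nearer to the membrane and keeps cadherins at the surface. In breast, luminal cells carry E-cadherin (CDH1), basal cells also carry P-cadherin (CDH3), and N-cadherin (CDH2) and cadherin 11 (CDH11) are known from mesenchymal cells. Beta-catenin also acts in the nucleus with TCF/LEF factors, and plakoglobin is also a part of desmosomes. CAMA1 has been described elsewhere as carrying an altered CDH1 gene with a faulty protein product, and gene counts do not read the sequence of a transcript.

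Replicate 1 held 26473939 counts, replicate 2 held 26592335 and replicate 3 held 30745412. Levels are TPM, a unit that divides a gene's count by its length and scales each library to the same total. Errors are SD over the libraries (n = 3), and p-values measure only the spread between these libraries, which may be technical, since the labels do not say how far the cultures were separate. In bulk RNA, fewer cells with a transcript and less of it per cell cannot be told apart. The luminal markers KRT8, KRT18, KRT19, EPCAM and GATA3 were all above 10 TPM and together reached 7136 to 8811 TPM per library. The 5 basal markers summed to 14.2 to 15.8 TPM, and 4 of them had at least 10 counts in each library (80.0%). Of all protein-coding entries 67.2% had as many. KRT17 was highest at 8.25 ± 0.409 TPM, then OXTR at 4.23 ± 0.0895 TPM, KRT14 at 1.48 ± 0.335 TPM and TP63 at 0.682 ± 0.195 TPM. KRT5 had 4 counts in each library. The 5 endothelial markers summed to at most 0.307 TPM and the 5 immune markers to at most 8.13 TPM, most of it from LYZ (6.48 ± 1.17 TPM). The 10 fibroblast markers summed to 151 to 196 TPM, most of it from COL3A1 (163 ± 23.4 TPM). COL1A1 was at 10.5 ± 0.270 TPM and VIM at 3.27 ± 0.0515 TPM. PDGFRB had 2, 6 and 0 counts and FAP had 0, 1 and 3, while COL1A2, PDGFRA, DCN, LUM and THY1 had 0 counts in every library.

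Of the 9 genes, 5 had promoter windows in the RefSeq table used here (GRCh38.p14), 11 windows in all, each running from 250 bases before to 50 bases after a transcript start. The windows at the starts nearest to the deposited gene ends are shown for the 3 abundant catenins and for CDH2, the least abundant member, because they set genes of very different levels side by side. Capitals mark the GC box GGGCGG or its reverse complement CCGCCC, overlapping matches included. They lie at chr5:138753175-138753474 (plus strand) for CTNNA1, chr3:41199255-41199554 (plus) for CTNNB1, chr17:41786662-41786961 (minus) for JUP and chr18:28177081-28177380 (minus) for CDH2.
CTNNA1: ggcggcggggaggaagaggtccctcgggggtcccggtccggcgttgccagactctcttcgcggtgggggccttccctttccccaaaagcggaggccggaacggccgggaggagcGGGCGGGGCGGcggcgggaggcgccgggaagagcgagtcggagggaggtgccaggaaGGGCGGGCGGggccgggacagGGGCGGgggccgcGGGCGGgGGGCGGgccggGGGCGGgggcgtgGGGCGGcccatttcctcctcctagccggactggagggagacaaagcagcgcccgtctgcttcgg
CTNNB1: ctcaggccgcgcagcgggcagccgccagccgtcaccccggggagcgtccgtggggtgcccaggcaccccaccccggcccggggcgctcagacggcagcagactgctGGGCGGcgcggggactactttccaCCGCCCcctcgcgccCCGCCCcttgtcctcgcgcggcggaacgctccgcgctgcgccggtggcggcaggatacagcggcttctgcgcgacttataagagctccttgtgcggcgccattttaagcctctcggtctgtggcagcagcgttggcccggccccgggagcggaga
JUP: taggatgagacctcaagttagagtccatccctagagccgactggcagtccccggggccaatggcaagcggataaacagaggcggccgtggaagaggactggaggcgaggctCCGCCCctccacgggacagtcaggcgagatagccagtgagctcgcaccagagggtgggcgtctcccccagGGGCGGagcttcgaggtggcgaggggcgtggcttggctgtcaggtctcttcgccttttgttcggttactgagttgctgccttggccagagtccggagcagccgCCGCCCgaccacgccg
CDH2: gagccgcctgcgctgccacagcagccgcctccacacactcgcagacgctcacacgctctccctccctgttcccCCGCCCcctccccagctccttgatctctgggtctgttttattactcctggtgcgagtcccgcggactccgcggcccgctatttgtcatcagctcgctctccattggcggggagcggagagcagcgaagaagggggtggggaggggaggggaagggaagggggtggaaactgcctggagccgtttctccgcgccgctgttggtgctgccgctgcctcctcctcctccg

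The GC box occurred 9 times in this CTNNA1 window, 3 times in that of CTNNB1, 3 times in that of JUP and 1 time in that of CDH2. It was present in 5 of the 11 windows, and in 45.0% of all 35116 windows of the same length. All 4 windows were rich in G and C, at 77.7%, 74.0%, 65.3% and 67.0% in the same order, against a median of 58.7%. The ratio of observed to expected CG pairs was 0.89 for CTNNA1, 0.95 for CTNNB1, 0.73 for JUP and 0.69 for CDH2, each above the median of 0.58 over all windows. The CDH2 window was close to that of JUP in both measures, and whether composition goes with level was not tested. Among windows not shown, those of CDH4 (0.37 and 0.49), CDH2 (0.32) and some of CTNNA1 (0.22 and 0.54) had ratios below the median. Another of CTNNA1 (1.06) and that of JUP (0.59) were above it. The letters CAGGTG or CACCTG, the E-box form bound by SNAI and ZEB repressors, were found in 20.6% of all windows and in 2 of the 11. These 2 were a second JUP start at chr17:41785927-41786226, which held it 2 times, and a CDH4 start at chr20:61499171-61499470, which held it 1 time. CDH1, CDH3, CDH11 and CTNND1 had no window, so neither motif was looked for at their starts.

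E-cadherin was the leading classical cadherin transcript of CAMA1 cells. CDH1 (chromosome 16, 68737292 to 68835541 on hg38, 16 exons) stood at 97.3, 89.6 and 83.0 TPM in replicates 1, 2 and 3, from 4640, 4308 and 4692 counts. Its mean was 90.0 ± 7.15 TPM, rank 2188 among 19083 protein-coding entries, and it made up 86.7 ± 1.17% of the TPM of the 5 cadherins. CDH3, which codes for P-cadherin, lies on the same chromosome (68644248 to 68699054), 38237 bases before CDH1 with no other entry between. It stood at 13.6, 14.2 and 10.6 TPM (mean 12.8 ± 1.95 TPM) and made up 12.3 ± 1.21%. No library brought CDH3 near CDH1: the log2 ratio of CDH1 over CDH3 was 2.84, 2.66 and 2.97, a mean of 2.82 ± 0.16 or 7.08-fold.

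The 3 other cadherins were close to the detection limit. CDH11 (chromosome 16, 64943753 to 65122137) had 39, 42 and 33 counts, or 0.564, 0.603 and 0.403 TPM. CDH4, which codes for R-cadherin (chromosome 20, 61252426 to 61940617), had 38, 37 and 59 counts, or 0.315, 0.304 and 0.412 TPM. CDH2 (chromosome 18, 27950963 to 28177446) had 4, 7 and 13 counts, or 0.0907, 0.158 and 0.249 TPM. CDH2 was the only member below 10 counts in a library, the minimum used here to call a gene detected, and it was low in all 3 libraries. The shares of the cadherin TPM were CDH11 0.502 ± 0.0746%, CDH4 0.336 ± 0.0867% and CDH2 0.165 ± 0.0918%. The log2 ratio of CDH1 was 7.42 ± 0.23 over CDH11, 8.00 ± 0.33 over CDH4 and 9.10 ± 0.80 over CDH2. With 1 TPM in place of 0.01 TPM added to both genes these ratios were 5.90, 6.08 and 6.29, so their size depended on how the low counts were treated. Adding the same value to both genes cannot change their sign. The 8 detected members, 8 of 9, compare with 67.2% of all protein-coding entries and 54.9% of all entries that reached the same minimum.

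**Figure D1:**
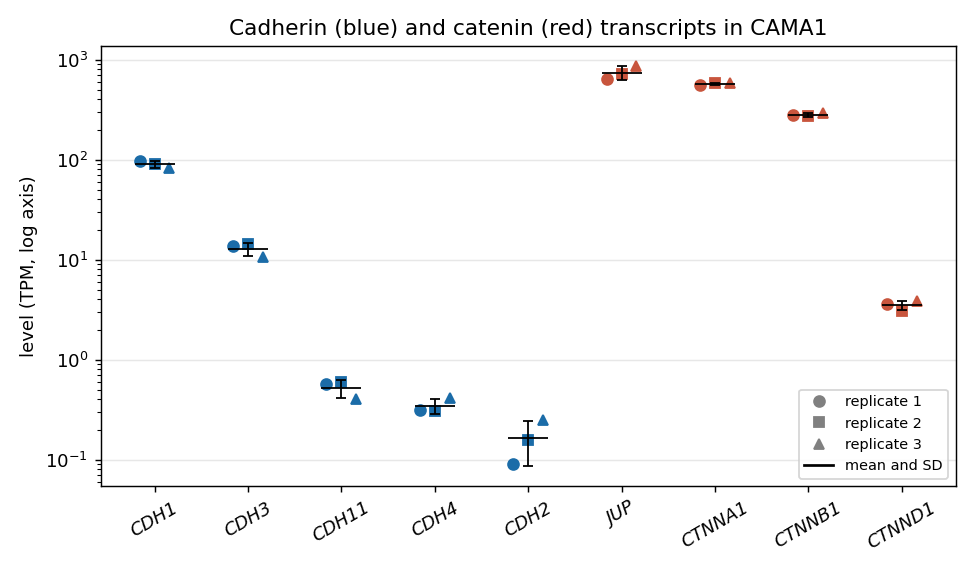
Level of each cadherin (blue) and catenin (red) gene in TPM on a log axis, with a symbol for each replicate and a bar for the mean and SD (n = 3). CDH1 sits near 90.0 TPM and CDH3 near 12.8 TPM, CDH11, CDH4 and CDH2 lie below 1 TPM, and JUP, CTNNA1 and CTNNB1 lie above 270.7 TPM in every library, while CTNND1 stands apart from the other catenins.

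Plakoglobin, alpha-catenin and beta-catenin transcripts all stood above CDH1. JUP (chromosome 17, 41754607 to 41786712) reached 645, 719 and 865 TPM, a mean of 743 ± 112 TPM at rank 140 among protein-coding entries. CTNNA1 (chromosome 5, 138753396 to 138935034) stood at 553, 584 and 577 TPM, a mean of 571 ± 16.3 TPM at rank 199. CTNNB1 (chromosome 3, 41199451 to 41240448) stood at 277, 271 and 296 TPM, a mean of 281 ± 13.0 TPM at rank 506. The order of JUP above CTNNA1 above CTNNB1 held in 3 of 3 libraries and their ranges did not overlap. The order of JUP and CTNNA1 rests on length: before division by it JUP was at 838, 947 and 1171 CPM, counts scaled to library size and TMM factors, and CTNNA1 at 893, 956 and 972 CPM, so that JUP was the lower in replicates 1 and 2. JUP had the largest SD in TPM of the 9 members, with replicate 3 highest. As a percentage of the mean its SD was 15.0%. That was below CDH2 (47.9%), CDH11 (20.3%), CDH4 (17.3%) and CDH3 (15.3%), and above the remaining members.

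Plakoglobin transcript thus exceeded that of beta-catenin, its closest relative. The log2 ratio of CTNNB1 over JUP was −1.22, −1.41 and −1.55 in replicates 1, 2 and 3 (mean −1.39 ± 0.16), and that of CTNNB1 over CTNNA1 was −1.02 ± 0.07. CDH1 over CTNNB1 gave −1.64 ± 0.17 and CDH1 over CTNNA1 −2.67 ± 0.15. Summed over genes, JUP, CTNNA1 and CTNNB1 reached 1595 ± 133 TPM and the 5 cadherins 104 ± 8.65 TPM. Transcript levels per length do not give the amounts of protein, and part of the JUP protein is placed in desmosomes.

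None of the 11 ratios formed between members changed sign from library to library. A two-sided exact permutation test that flips signs gave p = 0.25 each time, the smallest that 3 libraries can give, and 0.25 after Benjamini-Hochberg adjustment over the 11 pairs, so no ratio could pass 0.05. In the order of mean TPM, from JUP through CTNNA1, CTNNB1, CDH1, CDH3, CTNND1, CDH11 and CDH4 to CDH2, 7 of 8 neighbouring pairs did not overlap and kept their order in each library. The exception was CDH11 and CDH4, whose values overlapped and whose order held in 2 of 3 libraries. The deposited length of CDH4, 12193 bases, adds 5379 exon bases on an alternate contig to 6814 on chromosome 20. With the chromosome alone CDH4 was at 0.596 TPM and CDH11 at 0.508 TPM, the reverse order. The place of CTNND1 below CDH3 also depended on length: with only the exon bases it shares with no other entry it was at 49.8 TPM, above CDH3.

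The counts of CTNND1, the p120 catenin gene, come with a limit of the table, since most of its exon bases belong to 2 entries. CTNND1 (chromosome 11, 57761762 to 57819180) had 224, 195 and 286 counts, or 3.56, 3.08 and 3.84 TPM (mean 3.49 ± 0.384 TPM), at rank 10703. These counts are low in each library beside the 10053 to 12912 counts of CTNNB1. Of its 6350 exon bases 5905, or 93.0%, also belong to a second entry on the same strand, TMX2-CTNND1, a readthrough of the thioredoxin-related gene TMX2 into CTNND1. That entry had 0 counts in all 3 libraries, and each of its 6251 bases is shared with either CTNND1 or TMX2. The 445 bases that CTNND1 does not share lie in its exon 1 (358 bases) and exon 20 (87 bases), counted along the merged exons of the table.

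Entries that share all of their bases were nearly always at 0, while CTNND1 is among those that share part. Among entries placed on 1 sequence, 469 of 471 that share all of their bases with others on the same strand had 0 counts in every library, 99.6%, and all 203 protein-coding ones among them. The share was 23.8% of 919 entries that share part of their bases and 20.2% of 23890 that share none. No other member shared a base on its own strand. CTNNA1 overlaps the opposite-strand gene LRRTM2 in part, and whether strand was used in counting is not given in the sources used here. Divided by its 445 unshared bases alone, a length chosen after the data were seen, CTNND1 stood at 49.8 TPM. On that length CDH1 over CTNND1 went from a log2 ratio of 4.69 ± 0.23 to 0.86, CTNND1 over CTNNA1 from −7.36 ± 0.18 to −3.53 and CTNND1 over CTNNB1 from −6.33 ± 0.11 to −2.50, with the sign kept. Reads that run from an unshared into a shared exon may be missing from these counts, and how reads in shared bases were assigned is not given in the sources used here. Whether sharing lowered the CTNND1 counts was not tested, and neither value is taken as the level of the p120 catenin transcript.

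**Figure D2:**
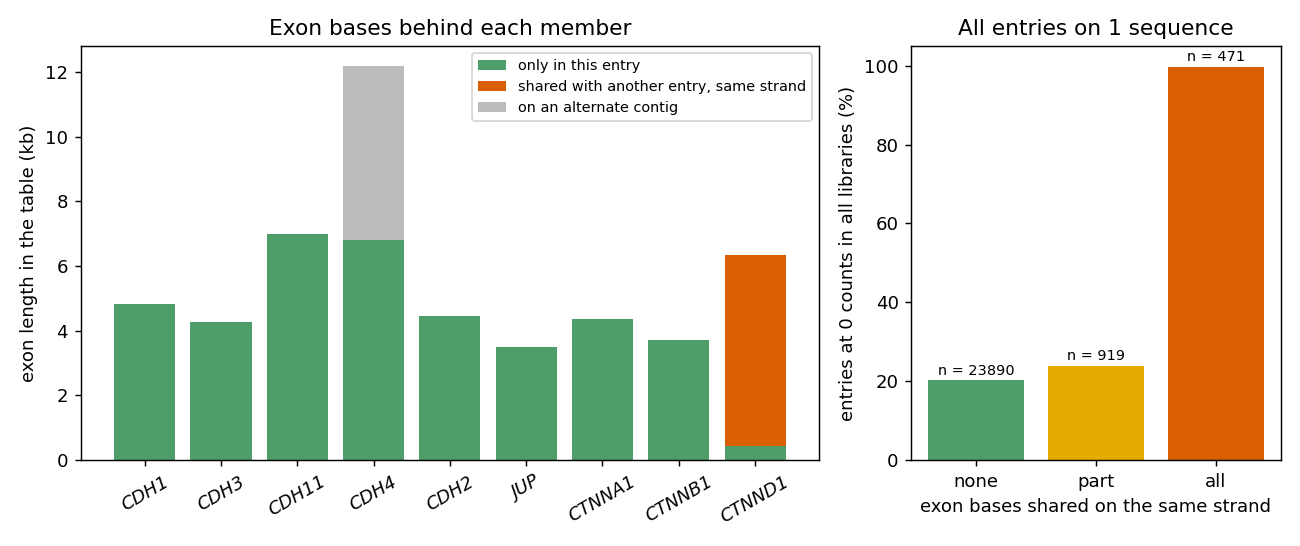
Left, exon length of each member in kb, split into bases held by that entry alone (green), bases shared with another entry on the same strand (orange) and bases on an alternate contig (grey). Right, percentage of entries with 0 counts in all libraries among those that share none, part or all of their exon bases, where 99.6% of the last group is at 0 and CTNND1, with 93.0% shared, is the sole member with orange bases.

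Coding sequences of the members were too different to be mistaken for one another in long stretches. From the longest coding sequence of each gene in GENCODE 29, no stretch of 50 bases was common to any pair of members. The closest pair was CTNNB1 and JUP, with 67.7% of the bases of the shorter one identical in a global alignment, followed by CDH2 and CDH4 at 65.7% and CDH1 and CDH3 at 65.2%. Pairs of a cadherin with a catenin, which are not related, lay between 51.0% and 59.6%. Some such stretches were found in other GENCODE genes: 8.98% of those of CDH11 in AC010533.1, 5.11% of those of CTNND1 in TMX2-CTNND1 or AP001931.1, and 1.24% of those of CTNNA1 in its pseudogene CTNNA1P1. The figure for CTNND1 holds for the GENCODE 29 transcripts only. By the deposited exon positions 93.0% of its exon bases belong to TMX2-CTNND1 as well, so it does not show that CTNND1 reads were unique. For CDH1 (4.36%), CDH2 (3.37%) and CDH3 (2.50%) the other gene lies on the opposite strand, and CDH4, CTNNB1 and JUP had none.

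Replicates differed by more than counting error for 5 of the 8 members tested, CDH1, CDH3, CTNNA1, CTNNB1 and JUP. The background was high: 41.6% of 14453 tested entries passed the same test, edgeR with a Poisson model and Benjamini-Hochberg adjustment over all of them at 0.05, and CDH2 was too low to be tested. The Poisson deviance of JUP was 1657 on 2 degrees of freedom, from the CPM values given above. The adjusted p of edgeR was 7.23e-07 for CDH1 (173, 162 and 154 CPM), 6.14e-05 for CDH3 (21.5, 22.8 and 17.4 CPM), 8.66e-22 for CTNNA1 (893, 956 and 972 CPM) and 1.3e-20 for CTNNB1 (381, 378 and 424 CPM). CTNND1 (0.0613), CDH4 (0.296) and CDH11 (0.353) did not pass it. In CPM, replicate 3 was highest for JUP, CTNNA1 and CTNNB1 and lowest for CDH1 and CDH3. In TPM, CTNNA1 was instead highest in replicate 2 (584 TPM, against 577 TPM in replicate 3).

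Measured against the spread that genes of similar abundance showed over these same libraries, no member passed the test. With edgeR's trended negative binomial dispersion 1.31% of 14453 entries passed and 0 of 8 members did, and JUP alone had an unadjusted p under 0.05 (0.0104, adjusted p = 0.333), as had 878 of the 14453 entries. The biological coefficient of variation lay between 6.90% for CDH1 and 13.9% for CDH4. It comes from edgeR's dispersion for each gene, not from the trended dispersion used in the test. In the Poisson test, CDH3 (adjusted p = 0.626) and CTNNB1 (0.837) no longer passed without replicate 3, while CDH1 (0.06) and CTNNA1 (0.113) no longer passed without replicate 1, and CTNND1 passed there (0.0252). JUP passed without each replicate in turn. The summed luminal markers were likewise lowest in replicate 1 and highest in replicate 3, at 7136, 7934 and 8811 TPM. The largest part of that rise was in KRT19, at 2719, 3137 and 3912 TPM, and GATA3 rose from 739 to 889 TPM. KRT8 (2546 and 2555 TPM) and KRT18 (1068 and 1071 TPM) hardly differed between replicates 2 and 3. EPCAM was lowest in replicate 3, at 402, 404 and 384 TPM. The part of these markers in the spread of JUP was not tested.

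**Figure D3:**
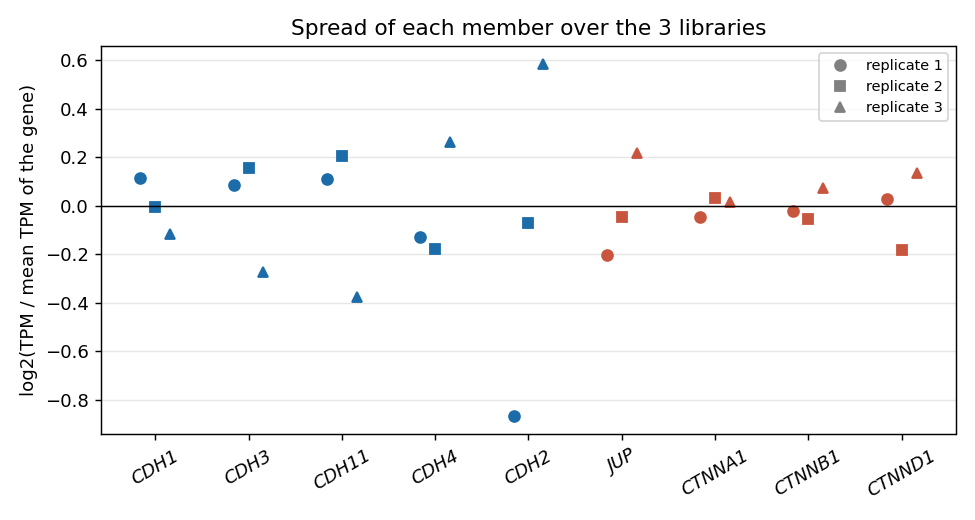
Level of each member in each replicate relative to its own mean, as log2(TPM / mean TPM), cadherins in blue and catenins in red. CDH2, which rests on 4 to 13 counts, spreads most, JUP is lowest in replicate 1 and highest in replicate 3, and CTNNA1 lies within a log2 range of 0.08.

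Relatives of the catenins were present for both p120 catenin and alpha-catenin. Of the p120 family, PKP4 stood at 74.1 ± 2.89 TPM, ARVCF at 44.4 ± 3.92 TPM and CTNND2 at 16.7 ± 2.22 TPM, and none of them shared exon bases with another entry. CTNNA2, the neural alpha-catenin gene, had 1, 3 and 1 counts and CTNNA3, the heart and testis form, had 0, 0 and 1. CTNNAL1, a more distant relative, was at 15.7 ± 1.65 TPM. In all, 4 of these 6 genes were detected (66.7%), near the 67.2% of all protein-coding entries, and their median was 16.2 TPM, where protein-coding entries had 7.95 TPM.

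Other cadherins were mostly low. Of 17 genes 8 were detected (47.1%), 8 had at most 3 counts in each library and 1, CDH16, lay between. Their median was 0.142 TPM. Among all protein-coding entries 67.2% were detected, 4568 of 19083 had at most 3 counts and the median was 7.95 TPM. CDH24, a type II cadherin gene, was highest at 22.5 ± 1.06 TPM, above CDH3 in each library. CDH10 stood at 7.55 ± 1.06 TPM, CDH13, whose product is anchored by a lipid and has no catenin-binding tail, at 2.23 ± 0.436 TPM, CDH12 at 1.19 ± 0.0773 TPM and CDH7 at 1.04 ± 0.154 TPM. CDH5, the endothelial cadherin gene, had 2, 0 and 0 counts.

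Of 12 desmosome genes 9 were detected (75.0%) and 6 reached 10 TPM, with a median of 13.3 TPM. These shares are near those of all protein-coding entries, of which 67.2% were detected and 9102 of 19083 reached 10 TPM. DSP, which codes for desmoplakin, led at 134 ± 13.4 TPM, followed by the plakophilin gene PKP3 at 90.6 ± 7.19 TPM and the desmosomal cadherin genes DSG2 at 52.2 ± 4.19 TPM and DSC2 at 33.4 ± 3.28 TPM. PERP stood at 28.3 ± 4.49 TPM. The desmosomal cadherin genes known from stratified epithelia were lower: DSG1 had 1, 2 and 0 counts and DSG4 none, while DSG3 and DSC3 passed the detection minimum, DSG3 at 0.784 ± 0.122 TPM and DSC3 at 0.844 ± 0.0704 TPM.

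Genes that tie junctions to actin, and those of nectin adhesion, were detected for 9 of 10 (90.0%), with a median of 85.4 TPM. All protein-coding entries had 67.2% detected and a median of 7.95 TPM. The alpha-actinin gene ACTN4 stood at 359 ± 12.0 TPM and ACTN1 at 169 ± 16.9 TPM. VCL, whose product vinculin binds alpha-catenin under tension, was at 130 ± 15.6 TPM, LIMA1 at 73.1 ± 3.72 TPM and the afadin gene AFDN at 42.5 ± 1.80 TPM. NECTIN2 was at 110 ± 6.74 TPM, NECTIN4 at 97.7 ± 1.68 TPM and NECTIN1 at 37.5 ± 1.78 TPM, and NECTIN3 had 9, 15 and 12 counts. PLEKHA7, which codes for a partner of p120 catenin, was at 13.4 ± 0.621 TPM.

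Genes that process, cleave or remove cadherins were detected for 8 of 9 (88.9%), with a median of 60.9 TPM. All protein-coding entries had 67.2% detected and a median of 7.95 TPM. FURIN, a protease that trims cadherin precursors, stood at 39.8 ± 3.48 TPM, and ADAM10, which sheds the E-cadherin ectodomain, at 65.3 ± 0.959 TPM. ADAM15, of the same protease family, was at 142 ± 9.63 TPM. CBLL1, the ubiquitin ligase gene also called Hakai, was at 41.3 ± 0.471 TPM and the trafficking genes ARF6 and RAB11A at 166 ± 6.29 and 156 ± 1.49 TPM. MMP7 had no counts in any library.

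Most transcriptional repressors of CDH1 were low beside CDH1 itself. Of 10 genes 5 were detected and 2 reached 10 TPM: TCF3, which codes for the widely expressed E proteins, at 159.8 ± 4.85 TPM, and KLF8 at 22.5 ± 0.575 TPM. TWIST1 was next at 9.87 ± 0.164 TPM. SNAI1 was at 1.38 ± 0.232 TPM, SNAI3 at 1.48 ± 0.365 TPM and SNAI2 at 0.754 ± 0.408 TPM. ZEB1 had 9, 14 and 2 counts, ZEB2 had 0, 0 and 1, and TWIST2 had none. The 8 transcription factors of epithelial identity were all detected, against the same 67.2%. GRHL2 led at 109 ± 1.96 TPM, with ELF3 at 53.8 ± 3.17 TPM. Their median was 23.4 TPM, where protein-coding entries had 7.95 TPM. EHF, at 1436, 1381 and 860 counts, was the only gene of this list that varied beyond the negative binomial spread (edgeR adjusted p = 1.69e-05).

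Genes of the machinery that degrades beta-catenin came next. Of 9 destruction genes 8 were detected (88.9%), with a median of 42.8 TPM. All protein-coding entries had 67.2% detected and a median of 7.95 TPM. The kinase genes CSNK1A1, GSK3A and GSK3B stood at 667 ± 46.2, 113 ± 5.22 and 75.3 ± 4.38 TPM. The scaffold genes AXIN1 and APC were at 42.8 ± 2.23 and 25.5 ± 0.234 TPM. The ubiquitin ligase genes FBXW11 and BTRC were at 87.1 ± 1.65 and 13.0 ± 0.460 TPM. AMER1 was at 6.53 ± 0.492 TPM. AXIN2, itself a target, had 4, 4 and 8 counts. Of 9 nuclear partners 7 were detected (77.8%, against the same 67.2%), with a median of 23.7 TPM. PYGO2 was at 132 ± 2.29 TPM and CTNNBIP1, an inhibitor of the TCF interaction, at 45.3 ± 5.33 TPM. BCL9L stood at 34.3 ± 0.943 TPM, TCF7L1 at 27.5 ± 4.04 TPM, TCF7L2 at 23.7 ± 1.28 TPM and BCL9 at 19.0 ± 0.781 TPM. TCF7 was at 0.802 ± 0.0371 TPM and LEF1 had 32, 23 and 9 counts.

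Of 10 target genes 6 were detected (60.0%), near the 67.2% of protein-coding entries. Only RNF43 reached 10 TPM, as did 9102 of the 19083 protein-coding entries, and the list median was 1.21 TPM against 7.95 TPM. RNF43 was highest at 26.3 ± 0.991 TPM, then ZNRF3 at 7.32 ± 0.665 TPM and DKK1 at 5.75 ± 0.696 TPM. LGR5 had 3, 5 and 6 counts and NKD1 had 0, 2 and 0. SP5 was at 1.99 ± 0.533 TPM and NOTUM at 1.63 ± 0.568 TPM. Levels in 1 group do not show how active the pathway was, and AXIN2, TCF7 and LEF1 are held by 2 of these lists.

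**Figure D4:**
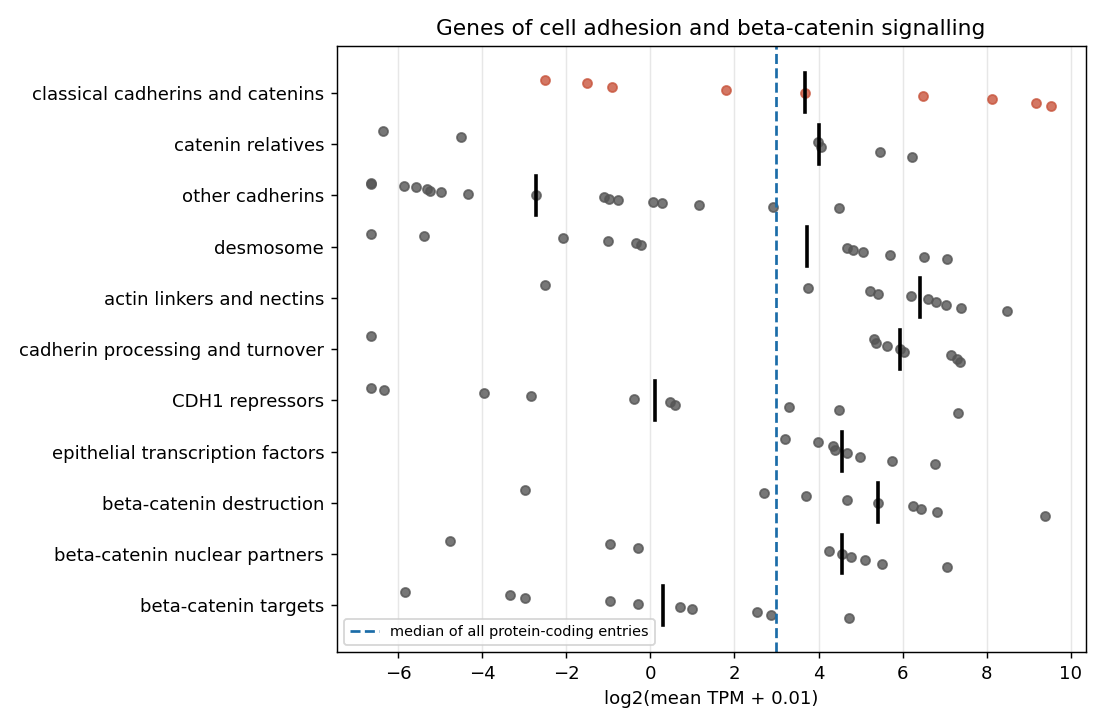
Mean level of each gene as log2(mean TPM + 0.01), by gene list, with a black bar at the list median and a dashed line at the median of all protein-coding entries (7.95 TPM). The cadherin and catenin members (red) span from CDH2 at 0.166 TPM to JUP at 743 TPM, and the lists of other cadherins, CDH1 repressors and beta-catenin targets have medians left of the line.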

How the data were processed

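Poly-A RNA of 3 CAMA1 libraries was prepared with a stranded Illumina kit and sequenced on an Illumina instrument, per the labels' protocols. The authors deposited expected counts for each gene, some of them fractional, beside exon positions and a length. TopHat, Subread and featureCounts with hg38 are named in the submitters' processing notes, and versions and settings are not given in the sources used here. All per-sample columns were used.

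TPM was computed from the counts and deposited lengths, with Python 3.11.15. Exon bases held by several entries on 1 strand were counted from the table's own positions. Gene types, identifiers and coding sequences came from GENCODE 29, matched by symbol for 24576 of 26485 entries. Older symbols were matched through RefSeq. Ratios used log2 with 0.01 TPM added. For the spread, counts were rounded and fitted in edgeR 4.0.16 (R 4.3.3) with TMM factors of 1.01, 1.00 and 0.990, its filter on low counts and an intercept alone. The Poisson test was also run on simulated data of 14506 tested genes. There 100 of 100 genes changed 2-fold in 1 library were recovered, 77 of 100 changed 1.25-fold, and 8 others were called. The simulated counts followed a Poisson model and only genes with higher counts were changed. They lack the extra spread of the real libraries, so these numbers do not give the error rates in the real data.

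The members and gene lists were chosen with earlier results of these data known. All 9 members are named, any gene of lists with up to 10 genes, and the 5 highest of longer lists. CDH5, CDH16 and low desmosome genes were named after their values were seen. Alternatives were other lengths, pseudocounts, minimums, DESeq2 1.42.0 size factors, no filter, a negative binomial spread, and leaving out each replicate.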

Additional observations from a re-analysis of the deposited data

How the results depend on the processing

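All 11 ratios kept their sign under each of the 80 alternative values computed, which were another pseudocount, CPM, other lengths and leaving out each replicate. Neither another pseudocount nor leaving out a replicate could reverse a ratio that had the same sign in every library. Only CPM and other lengths could have done so. Of 37 alternative levels 34 moved by less than the SD. Most of these left out a replicate, which with 3 libraries cannot move a mean by as much as the SD. Only the values with other lengths could have moved that far, and 3 of them did. With exon length on the main chromosome CDH4 went to 0.596 TPM and CTNNA1 to 554 TPM, the latter because the new lengths changed the total that TPM is scaled to. With unshared bases alone CTNND1 went to 49.8 TPM. Genes varying beyond Poisson sampling numbered 6017, and 190 with the negative binomial dispersion, 1180 without replicate 3 and up to 5453 without another replicate. Members varying numbered 5, and 0 with the negative binomial dispersion, 3 without replicate 3 and up to 5 without another. Between 6 and 9 members were detected at other minimums. Coding length from RefSeq proteins was not run, and GENCODE coding length was added in its place after the data were seen. CDH2, with 4 to 13 counts, limits what depth can show. No paired analysis was possible because the series holds 1 group.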
